A study of Mus musculus with 18 samples.

Results

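RNA of CD3+CD8+ cells was set against RNA of CD3+CD8- cells sorted from the livers of untreated tumour-bearing mice. These 6 libraries, 3 of each sort, were chosen from the 18 of the series by their treatment and cell type labels alone, and all expressed genes were compared, 13181 of 48440 gene identifiers. All mice were wild-type C57BL/6J animals bought at 7 weeks of age and fed for 1 week before use, and their liver tumours were raised by hydrodynamic tail vein injection of Ras and Myc oncogenes, which carries DNA mainly into hepatocytes. The untreated groups received no agent, and both groups were CD45+ leukocytes, so that the tumour, strain and tissue were shared. The treated mice received 4 mg/kg poly(I:C), a double-stranded RNA mimic, and 200 µg of an antibody against PD-L1 for 6 doses. They were compared with the untreated mice in 1 comparison. Their libraries and the CD3-CD8- libraries also entered the gene filter, the scaling and the estimate of the spread. The CD3+CD8+ libraries carry the numbers 1, 5 and 18 and the CD3+CD8- libraries the numbers 5, 18 and 6. The labels do not say whether a library came from 1 mouse or from a pool, nor that the libraries of a group came from separate mice. The p-values therefore measure only a spread between libraries, which was estimated within the groups of all 18.

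CD3 is the signalling part of the T cell receptor and marks T cells. CD8 binds MHC class I and marks the cytotoxic lineage, whereas CD4 binds MHC class II and marks helper and regulatory T cells. A CD3+CD8- gate therefore holds CD4+ T cells together with gamma-delta T cells, many NKT cells and other CD3+ cells that lack both coreceptors. In liver, resident and innate-like T cells are abundant, and neutrophils and macrophages collect in tumours.

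Library totals ran from 1829155 to 6703330 counts. Ribosomal loci took 87.0% of the counts in CD3+CD8+ 1 and 79.7% in CD3+CD8+ 18, against 0.762% to 1.95% in the other 4 libraries, which left 606759 and 486461 other counts in these 2 CD3+CD8+ libraries. A level of 3 counts, the limit that a count of 0 allows, corresponded to 0.313 to 5.57 CPM (counts scaled to the size of the library with the TMM method) across the libraries, counting error only. CD3+CD8+ 1, CD3+CD8+ 18 and the library labelled CD3+CD8- 6 were sequenced on lane 3 and the other 3 on lane 2. Xist, the RNA of the inactive X chromosome, stood at 1424 CPM in CD3+CD8+ 1 and at 250.3 CPM in the library labelled CD3+CD8- 6, and at no more than 5.57 CPM in the other 4. Ddx3y of the Y chromosome stood at 3.78 and 17.8 CPM in those 2 libraries and at 101 to 134 CPM in the other 4. The 2 libraries differed in their counts of the Y genes Ddx3y, Kdm5d, Uty and Eif2s3y. These were 3, 1, 1 and 3 in CD3+CD8+ 1 and 44, 17, 15 and 30 in the library labelled CD3+CD8- 6. That library thus held Xist together with RNA of the Y chromosome at a level between the others, and whether it mixes cells of both sexes was not tested. Ribosomal content and lane thus moved partly with the sort, whereas the sex-linked genes set 1 library of each sort apart. The comparison within each lane is given after the gene groups.

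The sort genes matched the labels in 5 of 6 libraries. Cd8a, the CD8 alpha chain (chr6:71373426-71379173), was at 657, 970 and 282 CPM in CD3+CD8+ 1, 5 and 18, at 4.64 and 6.82 CPM in CD3+CD8- 5 and 18, and at 641 CPM in the library labelled CD3+CD8- 6. Cd8b1, the CD8 beta chain, was at 471, 961 and 193 CPM, then at 18.2, 16.5 and 550 CPM in the same order. The library labelled CD3+CD8- 6 thus held both CD8 chains at the level of the CD3+CD8+ libraries, and with it neither chain passed the test (Cd8a log2 fold change 1.56 ± 1.16 SE, adjusted p = 0.792). Without it the log2 fold change was 6.75 for Cd8a and 4.89 for Cd8b1. Cd3e was at 241, 265 and 121 CPM in the CD3+CD8+ libraries and at 170, 107 and 216 CPM in the CD3+CD8- libraries. Cd3g and Ptprc, which encodes CD45, likewise overlapped between the groups, so all 6 libraries carried T cell and leukocyte RNA. The untreated CD3-CD8- libraries carried such RNA too, with means of 96.0 CPM for Cd3e, 296 for Cd3g, 177 for Cd8a and 103 for Cd8b1. The presence of CD3 RNA therefore does not by itself set the 6 libraries apart from that sort. Results are given with and without the library labelled CD3+CD8- 6 where it changes them.

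**Figure D1:**
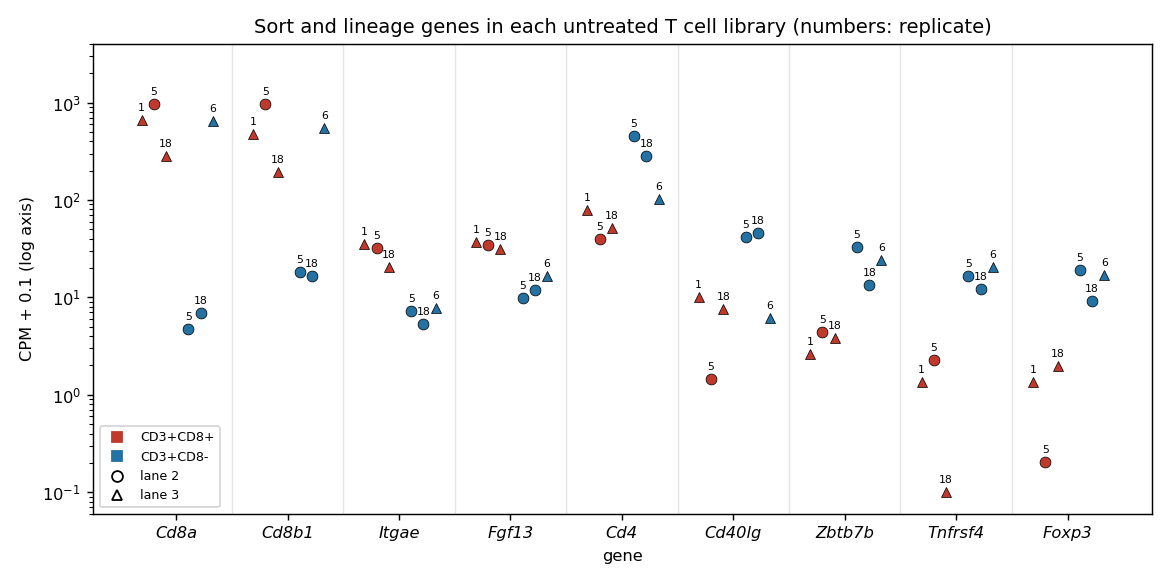
CPM + 0.1 on a log axis for 9 sort and lineage genes, with 1 point per library, red for CD3+CD8+ and blue for CD3+CD8-, circles for lane 2 and triangles for lane 3, and the replicate number above each point. In the Cd8a and Cd8b1 columns the blue triangle of number 6 lies among the red points, whereas for Zbtb7b, Tnfrsf4 and Foxp3 all 3 blue points lie above all 3 red points.

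Across 13181 genes tested with edgeR's quasi-likelihood test and Benjamini-Hochberg adjustment, 24 genes were higher in CD3+CD8+ cells (0.182% of those tested) and 184 were lower (1.4%) at an adjusted p below 0.05. The median log2 fold change of all genes was 0.02. The higher genes fell into 9 genes of T cells or without a list, 7 genes of B cells or MHC class II and 8 small nucleolar or Cajal body RNAs. The lower genes included 3 members of the helper T cell list, 2 of the regulatory T cell list and 6 of the neutrophil and monocyte lists. In bulk RNA of sorted cells, fewer cells of a type and less RNA per cell cannot be told apart. Without the library labelled CD3+CD8- 6, 33 genes of 14068 were higher (0.235%) and 341 lower (2.42%), of which 189 were among the 208 called with it. Without CD3+CD8+ 1 no gene passed the test, with 1162 genes at an unadjusted p below 0.05 and a smallest adjusted p of 0.0610. Leaving out CD3+CD8+ 5 gave 87 higher and 31 lower genes, and leaving out CD3+CD8- 5 or 18 gave 0 higher and 48 or 37 lower genes. A total of 11 lower genes (Adam8, Arid3a, Egr1, Emilin2, F13a1, Mmp9, Mxd1, Pgd, Slc16a3, Tnfrsf4 and Zfp36) and none of the higher genes passed in each of the other 5 removals of 1 library, and those among them without values below are named for this count alone. With the spread estimated from the 6 libraries alone instead of all 18, no gene of 10955 passed in edgeR, 706 had an unadjusted p below 0.05, and the smallest adjusted p was 0.0973. With all 18 libraries, DESeq2 called 116 higher and 400 lower genes and limma voom with quality weights 3 and 6.

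**Figure D2:**
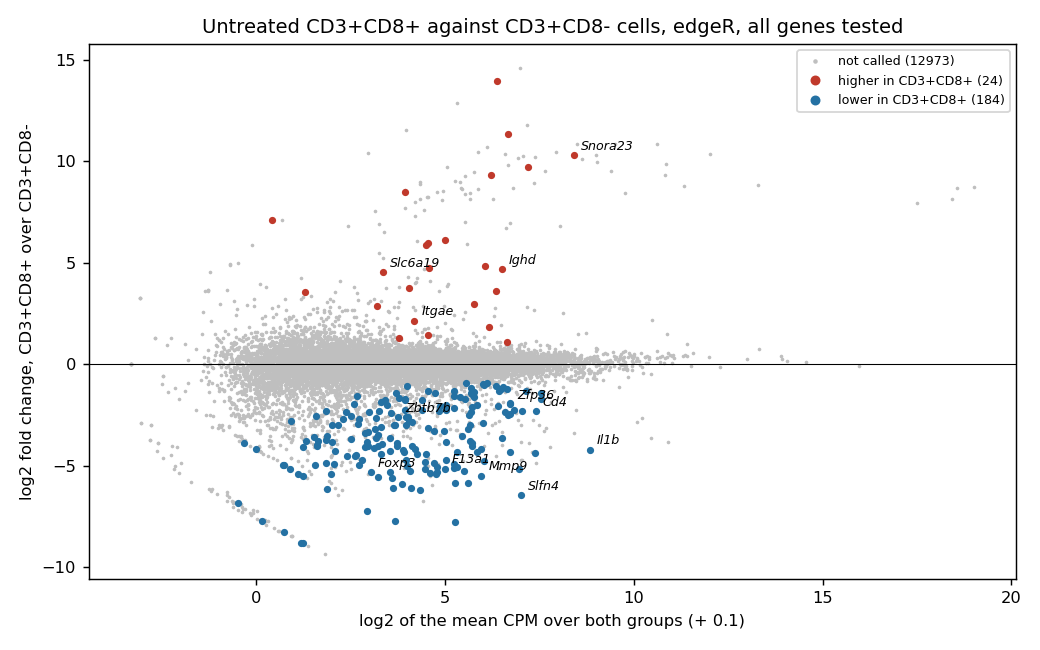
Log2 fold change (CD3+CD8+ over CD3+CD8-) of each gene tested with edgeR against log2 of its mean CPM + 0.1, with called genes in color. The 184 lower genes outnumber the 24 higher genes, and the points with log2 fold changes near 10 at the upper right are ribosomal loci and small RNAs. Genes at 0 in a whole group form the curved edge at lower left, where the fitted value depends on the prior count.

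Of 12 helper T cell genes tested, Cd4, Zbtb7b and Tnfrsf4 were lower in CD3+CD8+ cells, beside 1.4% of all genes called lower. The other 9 did not pass the test, and 11 of 12 had a negative log2 fold change. The list's median was -0.85, against 0.02 for all genes, and without the library labelled CD3+CD8- 6 it was -1.10 with 5 called. On lane 2 the median was -0.78 with 2 members positive, and on lane 3 it was -0.13 with 5 positive. Cd4 itself, a gene of the marker check and not of the sort, was at 79.4, 39.8 and 52.0 CPM in CD3+CD8+ 1, 5 and 18 and at 450.0, 285 and 103 CPM in CD3+CD8- 5, 18 and 6. The groups did not overlap, and the library labelled CD3+CD8- 6 was the lowest of its group (log2 fold change -2.31 ± 0.48 SE, edgeR adjusted p = 0.0305). Zbtb7b encodes ThPOK, the transcription factor that commits thymocytes to the CD4 lineage (chr3:89377643-89394776). It was at 2.52, 4.28 and 3.71 CPM in CD3+CD8+ cells and at 33.1, 13.4 and 23.9 CPM in CD3+CD8- cells, with no overlap (-2.63 ± 0.50, adjusted p = 0.0201). Tnfrsf4, the costimulatory receptor OX40 of activated helper and regulatory T cells, was at 1.26, 2.19 and 0 CPM against 16.6, 12.1 and 20.3 CPM (-3.21 ± 0.61, adjusted p = 0.0201). For both genes the library labelled CD3+CD8- 6 stood with the other CD3+CD8- libraries. Its Cd8a level thus matched the CD3+CD8+ libraries and its Zbtb7b level the CD3+CD8- libraries. Zbtb7b was also at a mean of 26.8 CPM in untreated CD3-CD8- cells, so its level does not point to the CD3+CD8- sort alone.

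Cd40lg, the helper ligand for B cells and dendritic cells, separated the libraries differently. It was at 10.1, 1.36 and 7.43 CPM in CD3+CD8+ cells, at 41.7 and 45.7 CPM in CD3+CD8- 5 and 18 and at 6.08 CPM in the library labelled CD3+CD8- 6, so the groups overlapped (log2 fold change -2.86 ± 0.87 SE, edgeR adjusted p = 0.122). Without that library the log2 fold change was -3.42 with an adjusted p of 0.0242. Ccr4, a chemokine receptor of type 2 helper and regulatory T cells, and Maf, a transcription factor of helper T cells, followed the same pattern: adjusted p = 0.0752 and 0.137 with the library, 0.0146 and 0.0356 without it. Of the lineage transcription factors, Runx3, which drives the CD8 lineage, was at 66.8, 57.1 and 52.0 CPM against 57.9, 31.7 and 75.3 CPM and did not pass the test (0.10 ± 0.33, adjusted p = 0.991).

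Of 17 tested regulatory T cell genes, 2 were called lower (Foxp3 and Entpd1), beside 1.4% of all genes. A further 12 of the 15 others had a negative log2 fold change without passing the test, and the median of the list was -0.83. Foxp3, the master transcription factor of regulatory T cells (chrX:7579675-7595243), had 1 count in each CD3+CD8+ library and 156, 35 and 42 counts in CD3+CD8- 5, 18 and 6. Every CD3+CD8- library, the one labelled 6 included, thus stood above every CD3+CD8+ library (edgeR adjusted p = 0.0161). The ratio of the pooled scaled counts was 58.6 (95% exact interval 19.8 to 286, counting error only). The CD3+CD8+ pool was mostly library 5, with a scaled total of 9575758 against 793480 and 538709 in libraries 1 and 18. In libraries 1 and 18, 3 counts equal 3.78 and 5.57 CPM, so their Foxp3 level is poorly known. Entpd1 encodes CD39, an ATP-degrading surface enzyme of regulatory and exhausted T cells and of myeloid cells, and was at 41.6, 45.2 and 63.1 CPM against 105, 195 and 68.1 CPM (-1.31 ± 0.30, adjusted p = 0.0440). Il2ra, the high-affinity IL-2 receptor chain CD25, was at 16.4, 5.43 and 16.7 CPM against 28.0, 73.7 and 17.8 CPM. It did not overlap but missed the threshold (adjusted p = 0.149), and had an adjusted p of 0.0464 without the library labelled CD3+CD8- 6. Bcl6, the factor of follicular helper T cells that B cells and macrophages also express, fell by 1.76 on the log2 scale (adjusted p = 0.0444) and was the only called member of the 14 follicular helper genes tested, whose median was -0.47. Of these calls, Foxp3 was lost without CD3+CD8+ 1 or CD3+CD8+ 5 (adjusted p = 0.0610 and 0.0866), Zbtb7b without these (0.0826 and 0.0665) or CD3+CD8- 5 (0.0665), and Tnfrsf4 without CD3+CD8+ 1 alone (0.0755). Cd4 was lost under each removal except that of the library labelled 6, and Entpd1 and Bcl6 under each removal except those of CD3+CD8+ 18 and of that library.

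On the CD8+ side, Itgae was the called member of the CD8 identity list. Itgae encodes CD103, the integrin chain that binds E-cadherin and marks resident CD8 T cells and some dendritic cells (chr11:73090582-73147446). It was at 35.3, 32.1 and 20.4 CPM in CD3+CD8+ 1, 5 and 18 and at 7.21, 5.25 and 7.70 CPM in CD3+CD8- 5, 18 and 6. The groups did not overlap and the library labelled 6 stood with its own label (log2 fold change 2.15 ± 0.41 SE, edgeR adjusted p = 0.0201). The call held without CD3+CD8+ 18 or the library labelled 6 and was lost without any of the other 4 libraries (adjusted p = 0.0513 to 0.0873). Cd69, the other widely used residency marker, was at 340, 199.6 and 154 CPM against 83.2, 88.2 and 147 CPM and was not called (1.13 ± 0.53, adjusted p = 0.480). The CD8 identity list held 10 of 11 members with a positive log2 fold change and a median of 0.60. Without the library labelled CD3+CD8- 6 its median was 1.16 and 4 of 11 members were called, among them Crtam, an adhesion receptor of activated cytotoxic cells, at 45.4, 75.6 and 27.8 CPM against 7.33, 11.3 and, in the library labelled 6, 57.1 CPM.

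The other genes higher in CD3+CD8+ cells that no B cell, MHC class II or small RNA group held were Slc6a19, Fgf13, Mcoln2, Bend5, Cd55, Kcna2, Man1a and Bfsp2, of which Slc6a19, Bend5, Kcna2 and Bfsp2 lay under the level set for naming and were named after their values were seen. Slc6a19, a transporter of neutral amino acids, was at 15.1, 29.3 and 13 CPM in CD3+CD8+ cells and at 0.244, 0 and 3.24 CPM in CD3+CD8- cells, with no overlap (log2 fold change 4.52 ± 0.97 SE, edgeR adjusted p = 0.0322). Fgf13, an intracellular regulator of sodium channels, was close among the CD3+CD8+ libraries at 36.5, 34.5 and 31.6 CPM, against 9.66, 11.8 and 16.6 CPM (1.45 ± 0.32, adjusted p = 0.0352). Mcoln2, an endolysosomal cation channel, was at 20.2, 18.8 and 18.6 CPM against 6.72, 7.08 and 9.72 CPM (1.31 ± 0.29, adjusted p = 0.0358). For these 3 genes the library labelled CD3+CD8- 6 was the highest of its group but below every CD3+CD8+ library. Kcna2, a voltage-gated potassium channel, rose by 2.85 on the log2 scale (adjusted p = 0.0423) and Bend5 by 3.56 (adjusted p = 0.0183). Cd55, which protects cells from complement, and Man1a, a mannosidase of the Golgi, were highest in CD3+CD8+ 18 at 199 and 186 CPM. Both were also high in untreated CD3-CD8- cells (means of 259.7 and 217 CPM), and CD3+CD8+ 18 was the T cell library with the most B cell RNA, whose part in these 2 results was not tested. Bfsp2 rested on 9 counts in CD3+CD8+ cells against 0. All 8 calls were lost without CD3+CD8+ 1, CD3+CD8- 5 or CD3+CD8- 18 (adjusted p = 0.0610 to 0.174), and those of Cd55, Kcna2 and Man1a also without the library labelled CD3+CD8- 6 (0.0665, 0.0870 and 0.107). Without CD3+CD8+ 5 those of Slc6a19, Fgf13, Mcoln2 and Kcna2 were lost (0.0547 to 0.104), and without CD3+CD8+ 18 those of Cd55, Man1a and Bfsp2 (0.0515 to 0.146).

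All 23 tested neutrophil genes had a negative log2 fold change, and 22 had no overlap between the groups (6.43% of all genes were lower without overlap). Of the 23, 4 were called (Mmp9, Csf3r, Cxcr2 and Il1b), beside 1.4% of all genes called lower. The list's median was -4.73, or -4.71 with the gene at 0 in a group set to its bound. Its summed level was 902, 57.6 and 995 CPM in CD3+CD8+ 1, 5 and 18 and 4439, 18049 and 6581 CPM in CD3+CD8- 5, 18 and 6, against 266 to 1090 CPM in untreated CD3-CD8- cells. Of the 24 genes listed, 4, 3 and 6 had no count in CD3+CD8+ 1, 5 and 18, and 0 were without counts in each CD3+CD8- library. Neutrophil RNA was thus higher in each CD3+CD8- library than in each CD3-CD8- library, although neutrophils carry no CD3. DESeq2 called 15 of the 23 genes lower.

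Mmp9, the gelatinase of neutrophil granules, was at 2.52, 0.731 and 13 CPM in CD3+CD8+ 1, 5 and 18 and at 98.3, 155 and 102 CPM in CD3+CD8- 5, 18 and 6 (log2 fold change -5.50 ± 0.93 SE, edgeR adjusted p = 0.0157). Csf3r, the receptor for the neutrophil growth factor G-CSF, was at 21.4, 1.98 and 33.4 CPM against 318, 471 and 154 CPM (-4.36 ± 0.99, adjusted p = 0.0420). Il1b, the inflammatory cytokine IL-1 beta, was at 61.8, 4.18 and 83.5 CPM against 607, 1781 and 193 CPM (-4.21 ± 0.98, adjusted p = 0.0447). CD3+CD8+ 5 was the lowest library for all 3 genes. Cxcr2, the receptor that guides neutrophils, fell by 5.18 on the log2 scale, and Slfn4, a schlafen gene of myeloid cells, by 6.47. Il1f9, C5ar1, Cxcl2 and Trem1, which serve neutrophil recruitment and activation, had log2 fold changes from -5.86 to -5.10, with adjusted p between 0.0198 and 0.0449. Hdc, the histamine-forming enzyme of basophils, mast cells and neutrophils, was at 6.30, 1.04 and 3.71 CPM against 95.1, 111 and 51.4 CPM and fell by 5.25. Mmp9 stayed called in each removal of 1 library except that of CD3+CD8+ 1, whereas Csf3r, Cxcr2 and Il1b were also lost without CD3+CD8+ 5 and without CD3+CD8- 5 or 18 (0.0697 to 0.170). Slfn4, Il1f9, C5ar1, Cxcl2 and Trem1 were lost without CD3+CD8+ 1, CD3+CD8+ 5 or CD3+CD8- 18, and Il1f9, Cxcl2 and Trem1 also without CD3+CD8- 5 (0.0588 to 0.180 in all). Hdc was lost without CD3+CD8+ 1 or 5 (0.0610 and 0.0677).

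**Figure D3:**
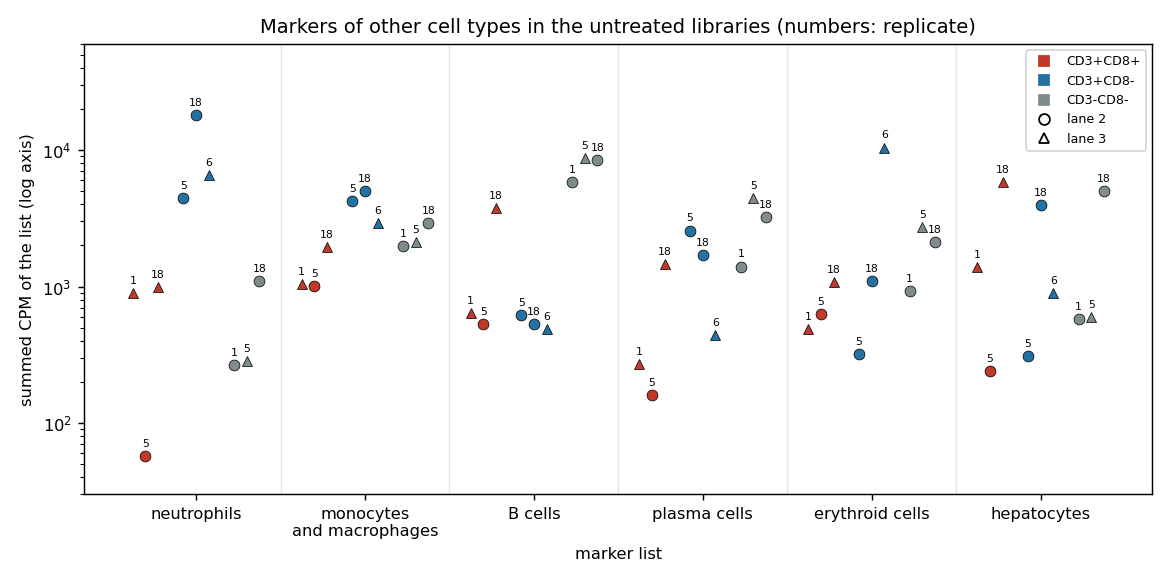
Summed CPM on a log axis of 6 marker lists in the 9 untreated libraries, with 1 point per library, red for CD3+CD8+, blue for CD3+CD8-, gray for CD3-CD8-, circles for lane 2 and triangles for lane 3. The 3 blue points lie above all red and gray points for neutrophil genes, the red triangle of number 18 stands alone among T cell libraries for B cell genes, and the blue triangle of number 6 stands alone for erythroid genes.

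Of the monocyte and macrophage genes, all 20 tested members had a negative log2 fold change and the median was -2.15. Of these, 2 were called lower, beside 1.4% of all genes. F13a1, the coagulation factor XIII chain of monocytes and macrophages, was at 3.78, 1.57 and 0 CPM in CD3+CD8+ cells and at 76.5, 72.4 and 36.1 CPM in CD3+CD8- cells (log2 fold change -5.15 ± 0.74 SE, edgeR adjusted p = 0.0157). In untreated CD3-CD8- cells its mean was 3.98 CPM. Cd14, a coreceptor for lipopolysaccharide, fell by 4.02 (adjusted p = 0.0309). The call of F13a1 was lost without CD3+CD8+ 1 (0.0610), and that of Cd14 without CD3+CD8+ 1 or 5 or CD3+CD8- 5 or 18 (0.0669 to 0.108). Lyz2, the lysozyme of myeloid cells, was at 134, 42.7 and 616 CPM against 2180, 2383 and 1119 CPM without overlap but missed the threshold (-2.86, adjusted p = 0.0698), as did Itgam, the integrin CD11b (-3.65, adjusted p = 0.0609). None of the 17 Kupffer cell genes was called by edgeR, DESeq2 or voom, 2 had an unadjusted p below 0.05, and the median was -0.59. Of the 184 genes lower in CD3+CD8+ cells, 166 (90.2%) were higher in CD3+CD8- cells than in CD3-CD8- cells, against 48.6% of all genes tested. This share partly follows from the choice of genes, which are high in CD3+CD8- cells. With the genes of the myeloid, B cell and dendritic cell lists removed before scaling, 16 higher and 172 lower genes were called, all 188 of them among the 208.

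Upstream sequence was read for the lower genes, which share a direction because they were picked by it. RefSeq promoter windows (GRCm38.p6, the 250 bases before the first listed start) were found for 131 of the 184 lower and 12 of the 24 higher genes. The 7 motifs searched on both strands were NF-kappaB (GGG, any 3 bases, then TTCC), C/EBP (TTGCNNAA), CRE (TGACGTCA), SRE (CCATA followed by TTAGG), AP-1 (TGANTCA), RUNX (TGTGGT) and PU.1 (GAGGAAGT). The NF-kappaB motif was in 13 of the 131 windows (9.92%) and in 4.60% of all 27025 windows, and the PU.1 motif in 8 (6.11%) and 2.44%, with Pira2, Pirb, Lilra6 and Gm14548, members of 1 gene family, in both counts. The C/EBP motif was in 9.92% of the 131 and 9.55% of all windows, RUNX in 9.92% and 14.2%, AP-1 in 8.40% and 6.87%, and CRE in 0.763% and 1.62%. SRE was in none of the 131 and in 0.0740% of all windows. No test was run on these shares, and all windows include those of genes not tested here. A match is a string of letters, not a bound site. The windows of 4 named lower genes with an NF-kappaB match are shown because they span a chemokine (Cxcl2, chr5:90903649-90903898, plus strand), a neutrophil receptor (Csf3r, chr4:126024409-126024658, plus strand), a helper T cell factor (Bcl6, chr16:23988853-23989102, minus strand) and a macrophage growth factor (Csf1, chr3:107760470-107760719, minus strand). Capitals mark the matches, which in Cxcl2 are 3, with 2 of them overlapping.
Cxcl2: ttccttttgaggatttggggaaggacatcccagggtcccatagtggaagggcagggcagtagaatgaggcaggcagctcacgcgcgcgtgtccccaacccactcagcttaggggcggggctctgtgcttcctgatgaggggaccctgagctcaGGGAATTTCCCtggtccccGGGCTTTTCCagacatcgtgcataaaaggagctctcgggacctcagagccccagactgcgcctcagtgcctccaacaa
Csf3r: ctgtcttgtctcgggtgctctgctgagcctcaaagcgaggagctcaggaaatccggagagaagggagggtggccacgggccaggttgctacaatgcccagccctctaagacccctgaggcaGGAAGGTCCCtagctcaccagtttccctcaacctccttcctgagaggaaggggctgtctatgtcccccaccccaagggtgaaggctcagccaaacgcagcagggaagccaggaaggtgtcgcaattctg
Bcl6: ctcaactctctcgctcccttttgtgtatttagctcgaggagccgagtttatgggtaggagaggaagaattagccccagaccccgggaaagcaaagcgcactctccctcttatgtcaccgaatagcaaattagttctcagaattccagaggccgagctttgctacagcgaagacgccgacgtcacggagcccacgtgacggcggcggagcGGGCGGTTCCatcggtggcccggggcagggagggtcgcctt
Csf1: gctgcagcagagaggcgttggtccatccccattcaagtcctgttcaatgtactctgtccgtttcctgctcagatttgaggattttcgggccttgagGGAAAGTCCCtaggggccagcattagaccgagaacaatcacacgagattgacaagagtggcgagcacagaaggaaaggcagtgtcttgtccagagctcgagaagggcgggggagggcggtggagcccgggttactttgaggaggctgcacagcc
The first match began 97 bases before the start in Cxcl2, 129 in Csf3r, 41 in Bcl6 and 154 in Csf1.

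B cell genes stood out in 1 CD3+CD8+ library. All 22 tested B cell genes had a positive log2 fold change, with a median of 3.41. Of these, 5 were called higher (Cd79b, Fcmr, Ighd, Ms4a1 and Pax5), beside 0.182% of all genes, and H2-Ob and H2-DMb2 of MHC class II were called too. The summed level of the B cell list was 638, 533 and 3737 CPM in CD3+CD8+ 1, 5 and 18, 614, 528 and 486 CPM in CD3+CD8- 5, 18 and 6, and 5795 to 8693 CPM in CD3-CD8- cells. Ms4a1, the B cell surface protein CD20, was at 35.3, 3.03 and 345 CPM against 2.2, 7.35 and 3.65 CPM, so the groups overlapped and only CD3+CD8+ 18 and 1 stood above the CD3+CD8- libraries. Pax5 was named after its values were seen. Ighd, the heavy chain of IgD on naive B cells, was at 54.2, 8.46 and 459 CPM against 4.52, 7.35 and 8.51 CPM, with the same overlap. The called genes Cd79b, Fcmr, H2-Ob and H2-DMb2 did not overlap, beside 3.77% of all genes higher without overlap. H2-Ob was at 39.1, 33.5 and 217 CPM against 14.5, 12.6 and 7.29 CPM. The margin for Cd79b was narrow, at 16.3 CPM in CD3+CD8+ 5 against 16.2 CPM in the library labelled CD3+CD8- 6. Without CD3+CD8+ 18 the log2 fold changes were 1.83 for Ms4a1 (edgeR adjusted p = 0.298) and 2.06 for Ighd (0.0883), and of the other 5 calls only that of H2-Ob held (0.0347). All 7 calls were lost without CD3+CD8+ 1, CD3+CD8- 5 or CD3+CD8- 18, and Cd79b, Ms4a1, Pax5 and H2-DMb2 were lost without the library labelled CD3+CD8- 6 (0.0603 to 0.0871). On lane 2, which held neither CD3+CD8+ 1 nor 18, the median of the B cell list was -0.46 with none of 22 genes called. In treated mice the median was -0.49. Plasma cell genes did not follow, with 12 of 13 at a negative log2 fold change, a median of -1.37 and 0 called by edgeR, DESeq2 and voom, of which 4 had an unadjusted p below 0.05. A further 168 immunoglobulin segments had a median of -2.23, 21 of them positive, with 0 called by edgeR (38 at an unadjusted p below 0.05), 9 lower by DESeq2 and 0 by voom.

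The 8 small RNAs among the higher genes followed the ribosomal content of the libraries. Small nucleolar, nuclear and Cajal body RNAs, which guide the modification of ribosomal and spliceosomal RNA, made up 10.4% and 2.80% of the counts outside ribosomal loci in CD3+CD8+ 1 and 18. In the other 4 libraries they made up at most 0.0267%. All 71 tested had a positive log2 fold change (median 8.87), and 8 were called, beside 0.182% of all genes called higher. Snora23 was at 1526, 0.104 and 509 CPM in CD3+CD8+ 1, 5 and 18 and at no more than 0.733 CPM in CD3+CD8- cells. CD3+CD8+ 5 thus stood with the CD3+CD8- libraries, and on lane 2 the log2 fold change of Snora23 was -2.24. The part of RNA quality and library preparation in these genes was not tested. With the ribosomal loci removed before scaling, 28 higher and 231 lower genes were called, 207 of them among the 208.

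Immediate-early and early-response genes were lower in CD3+CD8+ cells where called. Of 28 tested, 3 were called lower, beside 1.4% of all genes, 22 had a negative log2 fold change and the median was -0.34. Egr1, a zinc finger factor induced within minutes of receptor signalling, was at 10.1, 11.3 and 13 CPM in CD3+CD8+ 1, 5 and 18 and at 58.7, 72.4 and 28.8 CPM in CD3+CD8- 5, 18 and 6 (log2 fold change -2.24 ± 0.38 SE, edgeR adjusted p = 0.0157). Zfp36, which degrades cytokine mRNA, was at 35.3, 45.5 and 46.4 CPM against 210.1, 194 and 96.4 CPM (-1.97 ± 0.34, adjusted p = 0.0157). The CD3+CD8+ libraries lay close together for both genes, and the library labelled CD3+CD8- 6 lay nearest to them. Atf3, a stress-induced factor, fell by 4.28 (adjusted p = 0.0267), and Nr4a1, which follows T cell receptor signalling, was at -2.35 with an adjusted p of 0.0777. These genes are also expressed by myeloid cells, whose markers were higher in the same libraries, and the part of such cells in the result was not tested. Egr1 and Zfp36 stayed called in each removal of 1 library except that of CD3+CD8+ 1 (adjusted p = 0.0737 for both), whereas Atf3 was also lost without CD3+CD8+ 5 or CD3+CD8- 5 or 18 (0.0622 to 0.166).

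Among metabolic genes, 3 of 21 glycolysis genes were called, all lower, beside 1.4% of all genes called lower. Of the 21, 20 had a negative log2 fold change, and the median was -0.48. Slc16a3, the lactate exporter MCT4, was at 0, 1.36 and 1.86 CPM in CD3+CD8+ cells and at 20.4, 15.7 and 20.3 CPM in CD3+CD8- cells (log2 fold change -3.95 ± 0.61 SE, edgeR adjusted p = 0.0157), and the library labelled CD3+CD8- 6 stood with its group. Hk2, a hexokinase, fell by 2.33 and Slc2a3, the glucose transporter GLUT3, by 1.10. Slc16a3 was lost without CD3+CD8+ 1 alone (0.0610), Hk2 also without CD3+CD8+ 5 or CD3+CD8- 5 or 18, and Slc2a3 without any library but the one labelled CD3+CD8- 6 (0.0590 to 0.172). The median of the list was positive on lane 2 (0.16, 16 of 21 genes) and -1.42 on lane 3 (21 of 21 negative), so its direction changed with the lane. Slc16a3 was at -3.73 and -4.75, a shared direction that follows from the lack of overlap between its groups. Nuclear genes of oxidative phosphorylation had a median of 0.10 with 0 of 79 called by edgeR, DESeq2 or voom, and 0 at an unadjusted p below 0.05. Of the 19 tested TNF and interleukin cytokines, Csf1 and Tgfb3 were called lower, beside 1.4% of all genes. Csf1, the growth factor of macrophages, was at 3.78, 3.13 and 11.1 CPM against 21.5, 78.2 and 38.5 CPM (-3.31 ± 0.69, adjusted p = 0.0305). Tgfb3 had 0 counts in CD3+CD8+ cells and 6, 5 and 4 in CD3+CD8- 5, 18 and 6. The exact lower limit of the ratio of the pooled scaled counts, CD3+CD8- over CD3+CD8+, was 2.71 (counting error only). The CD3+CD8+ pool was mostly library 5. In CD3+CD8+ 1 and 18, 3 counts equal 3.78 and 5.57 CPM, so their Tgfb3 level is poorly known. Tnfrsf1b, the TNF receptor 2 that is prominent on regulatory T cells, fell by 1.33 (adjusted p = 0.0198). Tnfrsf1b was lost without CD3+CD8+ 1 or CD3+CD8- 5 (0.0896 and 0.0692), Csf1 without CD3+CD8+ 1 or 5 or CD3+CD8- 18 (0.1095 to 0.148), and Tgfb3 without these or CD3+CD8- 5 (0.0689 to 0.428).

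Cytotoxic genes, the textbook function of CD8 T cells, did not separate the sorts as a list. None of 26 was called by edgeR or voom, DESeq2 called 1 lower, 3 had an unadjusted p below 0.05 and all 3 were lower (Gzmc, Cx3cr1 and Id2). Without overlap between the groups, 4 members were lower and 0 higher, beside 6.43% of all genes lower without overlap. The median of the list was -0.22, and 11 members were positive. Without the library labelled CD3+CD8- 6 the median of the list was 0.003, with 0 called. Its summed level was 2465, 4723 and 2452 CPM in CD3+CD8+ 1, 5 and 18 and 2552, 3083 and 5675 CPM in CD3+CD8- 5, 18 and 6, so the highest level was in the library labelled CD3+CD8- 6. On lane 2 the median was 0.53 with 17 of 26 members positive, and on lane 3 it was -1.18 with 23 of 26 negative, so the lanes were opposite. Of 25 inhibitory receptor and exhaustion genes, Entpd1 and Bhlhe40 were called lower, beside 1.4% of all genes, and 8 were positive (median -0.43). Bhlhe40, a transcription factor of activated T cells and macrophages, was at 25.2, 37.9 and 29.7 CPM against 78.1, 66.6 and 68.5 CPM (log2 fold change -1.17 ± 0.28 SE, edgeR adjusted p = 0.0480). The naive and central memory list had 19 of 24 members positive (median 0.41). Ly6c1 was the called member, and it was lower: 5.04, 1.57 and 0 CPM against 20.0, 23.4 and 8.10 CPM (-3.10 ± 0.74, adjusted p = 0.0464). The calls of Bhlhe40 and Ly6c1 held without the library labelled CD3+CD8- 6 and were lost under each of the other 5 removals (0.0648 to 0.217 and 0.0650 to 0.208).

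Of 53 type I interferon-stimulated genes tested, only Oas2, a sensor of double-stranded RNA, was called, beside 1.4% of all genes called lower. The median of the list was -0.19 with 37 members negative, and on lane 3 it was -0.01 with 26 positive and 27 negative. Oas2 was at 2.52, 5.12 and 9.28 CPM against 35.8, 27.5 and 10.9 CPM (log2 fold change -2.25 ± 0.54 SE, edgeR adjusted p = 0.0464). Its call was lost without CD3+CD8+ 1 or 5 and without CD3+CD8- 5 or 18. Cell cycle genes were positive for 34 of 40 members with a median of 0.25, and edgeR, DESeq2 and voom called 0, with 0 at an unadjusted p below 0.05. On lane 3 their median was -0.76. The T cell receptor complex list had a median of 0.05 with 0 of 18 called by all 3 tools and 1 at an unadjusted p below 0.05. NK cell genes had a median of -0.48, gamma-delta T cell genes of -0.55 and NKT cell genes of -0.30, each with 0 called by edgeR and voom and with 1, 4 and 1 members at an unadjusted p below 0.05. DESeq2 called 0 NK cell genes, 3 gamma-delta T cell genes and 0 NKT cell genes.

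Erythroid and hepatocyte RNA marked single libraries. The erythroid list summed to 10452 CPM in the library labelled CD3+CD8- 6 and to 321 to 1096 CPM in the other 5. Hbb-bs, an adult beta globin, was at 244, 278 and 457 CPM in CD3+CD8+ cells, 135.9 and 621 CPM in CD3+CD8- 5 and 18 and 5422 CPM in that library. The median of the erythroid list was -1.33 with it and 0.33 without it, and 0 genes were called by edgeR or voom and 2 lower by DESeq2, with 4 at an unadjusted p below 0.05. Hepatocyte genes summed to 5825 CPM in CD3+CD8+ 18 and 3944 CPM in CD3+CD8- 18, and to 242 to 1389 CPM in the other 4. Both libraries of number 18 were thus high, and the list did not separate the sorts (median 0.06, 0 of 28 called by all 3 tools, 1 at an unadjusted p below 0.05).

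The position of the library labelled CD3+CD8- 6 between the sorts was read from genes called without it. Among the 33 genes higher in CD3+CD8+ cells in the comparison without it, its log2 CPM was nearer to the CD3+CD8+ mean for 23 (69.7%). On a scale where the mean of CD3+CD8- 5 and 18 is 0 and the CD3+CD8+ mean is 1, its median position was 0.79. Among the 341 lower genes it was nearer to the CD3+CD8+ mean for 149 (43.7%), with a median position of 0.45. Its middle 50% of positions ran from 0.37 to 1.17 for the higher genes and from 0.30 to 0.65 for the lower genes, so it lay between the sorts for most lower genes. Genes picked by a difference between the other libraries tend to overstate it, so a held-out library can fall between the sorts for that reason alone. No other library was placed in this way, and the 33 higher genes include Cd8a and Cd8b1, which had set this library apart. The positions therefore do not decide its sort, and what the library holds was not tested further.

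**Figure D4:**
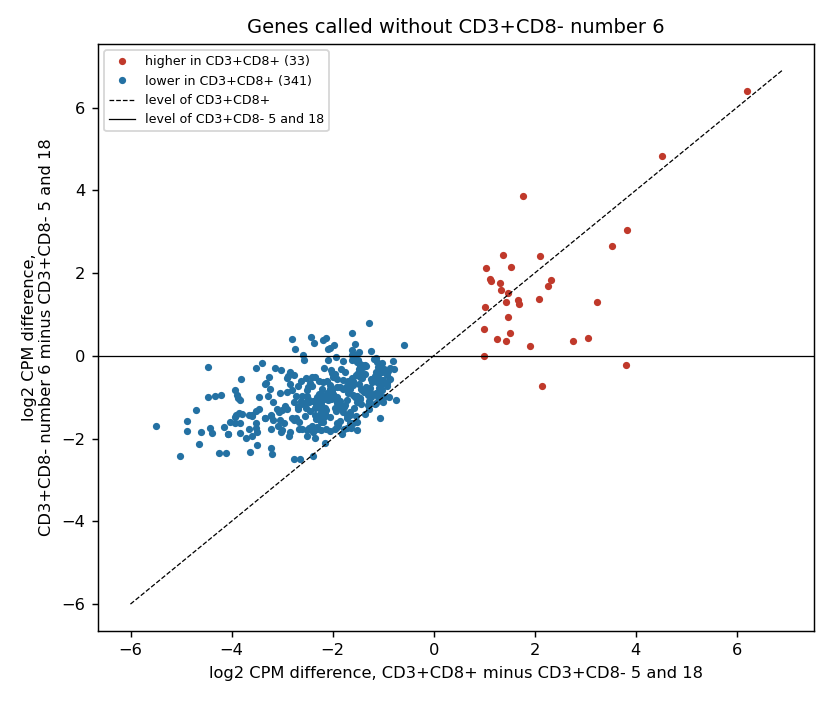
For the genes called without the library labelled CD3+CD8- 6, its log2 CPM minus the mean of CD3+CD8- 5 and 18 (vertical) against the CD3+CD8+ mean minus the same mean (horizontal). Points on the dashed line lie at the level of CD3+CD8+ cells and points on the horizontal line at that of CD3+CD8- 5 and 18. The 33 red points scatter around the dashed line (median position 0.79) and the 341 blue points have a median position of 0.45, with some of them outside both lines.

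The lanes shared no library and were compared with each other. On lane 2, CD3+CD8+ 5 against CD3+CD8- 5 and 18, edgeR called 73 of 13823 genes higher (0.528%) and 173 lower (1.25%). On lane 3, CD3+CD8+ 1 and 18 against the library labelled CD3+CD8- 6, 29 of 16071 genes were higher (0.18%) and 132 lower (0.821%), where the lone library of each lane is assumed to vary like the other groups. Of the 173 lower genes of lane 2, 106 (61.3%) were negative on lane 3, against 51.1% of all genes tested in both, and 7 were called there. These 7 were Adam8, F13a1, Hdc, Ifitm2, Mmp9, Pygl and Slfn4, and no gene was called higher in both lanes. Adam8, Ifitm2 and Pygl were named after their values were seen. Adam8, a membrane protease of leukocytes, was at 3.78, 6.16 and 7.43 CPM in CD3+CD8+ 1, 5 and 18 and at 65.9, 55.4 and 47.4 CPM in CD3+CD8- 5, 18 and 6. In the other direction, of the 132 lower genes of lane 3, 42 (31.8%) were negative on lane 2, against 50.3% of all genes, and their median there was 0.69. Of the 73 higher genes of lane 2, 12 (16.4%) were positive on lane 3, against 47.8% of all genes, and of 25 higher genes of lane 3 tested on lane 2, 4 (16%) were positive there, against 49.5%. These shares were not tested.

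Gene groups divided by whether the lanes matched. Neutrophil genes were negative for 23 of 23 on lane 2 (median -6.54) and for 23 of 24 on lane 3 (median -3.73, 12 called), and regulatory T cell genes had medians of -0.93 and -1.23. Foxp3 was at -6.93 and -3.52, Zbtb7b at -2.46 and -3.01, Tnfrsf4 at -2.71 and -4.78, and Itgae at 2.34 and 1.85 in lanes 2 and 3. These 4 genes kept their direction in both lanes, and so did Cd4, whose log2 fold change was -3.21 on lane 2 and -0.67 on lane 3. For none of them did the sorts overlap across the libraries, so the same direction in both lanes followed from that and is no separate support. The same holds for 22 of the 23 neutrophil genes. Foxp3 was called on lane 2 (adjusted p = 0.0280), Tnfrsf4 on lane 3 (adjusted p = 0.0430), and Zbtb7b and Itgae in neither lane. Cd8a turned from 7.43 to -0.48, Cd40lg from -4.99 to 0.52 and Maf from -3.76 to 0.16. The medians of ribosomal protein genes were 1.76 and -1.32, those of cell cycle genes 0.88 and -0.76 and those of MHC class I presentation 0.56 and -0.96, each opposite between the lanes. Lane and the identity of the libraries cannot be told apart.

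**Figure D5:**
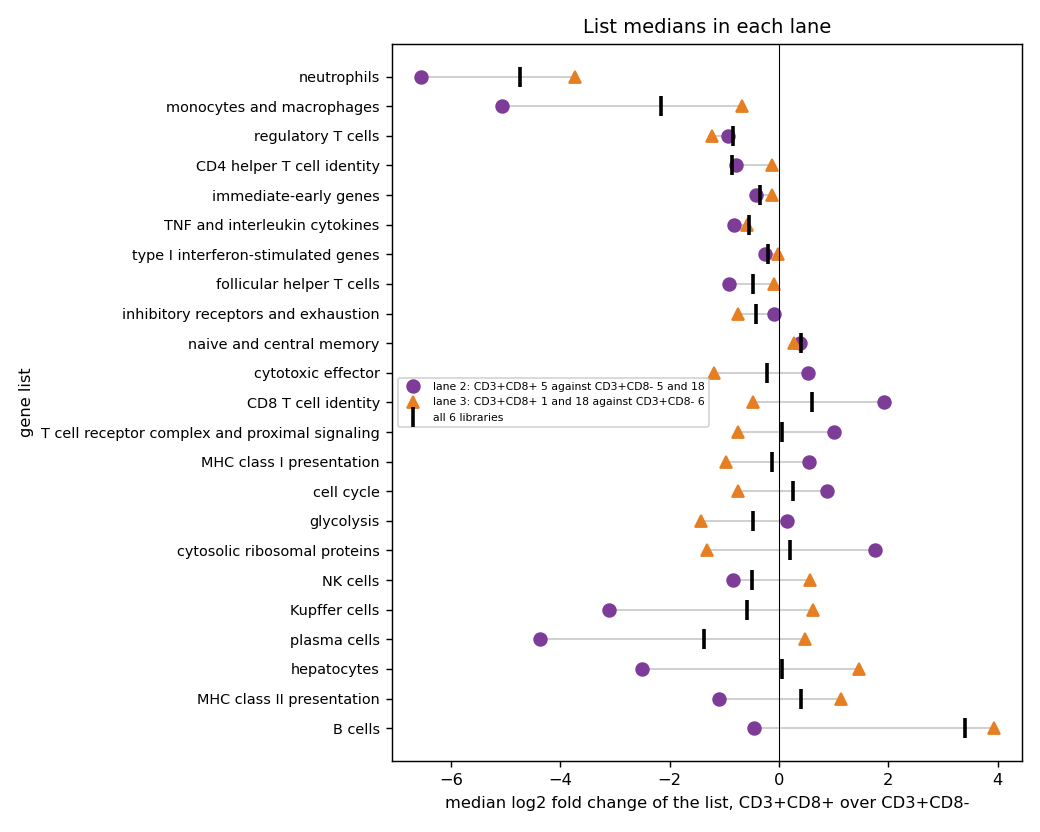
Median log2 fold change (CD3+CD8+ over CD3+CD8-) of gene lists on lane 2 (purple circles), on lane 3 (orange triangles) and over all 6 libraries (black bars). Neutrophil, monocyte, regulatory and helper T cell medians lie left of 0 in both lanes, whereas the medians of B cells, hepatocytes, ribosomal proteins, the cell cycle and CD8 identity lie on opposite sides of 0.

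The same contrast in treated mice was set beside the untreated one, with separate libraries on each side. No gene of 13181 passed the test of the difference between the 2 contrasts (edgeR, 0%, smallest adjusted p = 0.0943), with 478 genes at an unadjusted p below 0.05, 0 called by voom, and 108 above and 8 below by DESeq2. The 5 genes of smallest adjusted p were small RNAs such as Snora23 and Snord17. Snora23 had a log2 fold change of 10.29 in untreated and -7.28 in treated mice, where a CD3+CD8- library was rich in ribosomal loci. Lineage genes had values of the same sign in both: Foxp3 was at -5.34 and -4.68, Zbtb7b at -2.63 and -2.71, Cd4 at -2.31 and -4.57 and Mmp9 at -5.50 and -6.21 in untreated and treated mice. Csf1 was at -3.31 and -0.66, Tnfrsf1b at -1.33 and -0.32 and Entpd1 at -1.31 and -0.16, and none of these 3 differences passed the test. The medians of the neutrophil list were -4.73 and -5.93, and those of the cytotoxic list -0.22 and 0.89.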

How the data were processed

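RNA of sorted liver leukocytes was measured by sequencing. The authors deposited whole-number counts per gene for 48440 identifiers in 40 libraries. The 18 listed for the series were used, and another 22 columns were not analysed here. They also deposited FPKM values per gene, used for symbols, positions and 1 alternative, which gave 48242 symbols. Per the submitters' processing notes, the tools were DESeq2 3.20, Cufflinks 2.2.1, Trim Galore 0.6.7 and HTSeq 0.13.5, with roles not stated. Aligner, build and strand setting: not given in the sources used here. GENCODE vM21 (GRCm38) held 48058 of the identifiers, all on the same chromosome, and positions printed are the FPKM table's.

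Groups follow the cell type and treatment labels. Low genes were removed by filterByExpr over the 18 libraries, and the rest were scaled by TMM and fitted in 6 groups in edgeR 4.0.16 under R 4.3.3. The quasi-likelihood F-test was two-sided, its p was adjusted by Benjamini-Hochberg over all genes, and genes below 0.05 were called. The SE is the log2 fold change over the square root of F. CPM are counts scaled by the TMM library size, the log2 CPM of the positions have a prior count of 2, and levels are given per library. Alternatives used DESeq2 1.42.0 and limma 3.58.1, including limma on log2(FPKM + 1). The fit was run on simulated counts drawn from 1 mean per gene, apart from genes changed on purpose. These lacked the ribosomal content, CD8 transcripts and lane differences of single libraries, so the run does not bear on those. The members and the 51 gene lists were chosen with earlier results of these data known. Named genes were the sort and lineage genes, the 10 largest changes each way among genes whose mean log2 CPM reached 3, with and without the library labelled CD3+CD8- 6 (filled by smallest p), up to 4 members per list by smallest p, and the 5 genes of smallest adjusted p for the difference between treatments. Unnamed models and receptor segments were left out of these. Others were named after their values were seen. A ratio with 1 to 3 counts has an exact 95% interval, and one with 0 counts its lower limit. Genes with near-identical copies (Pira and Lilra genes, small RNAs, receptor segments) may share reads.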

Additional observations from a re-analysis of the deposited data

How the results depend on the processing

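The depth of the 2 CD3+CD8+ libraries rich in ribosomal loci limits genes of low level: 3 counts there equal up to 5.57 CPM. The 208 called genes became 204 with DESeq2 size factors, 177 with a stricter filter, 259 with ribosomal loci removed and 228 with immunoglobulin, erythroid, hepatocyte and mitochondrial genes removed. They became 758 with library totals alone, 775 without a filter (39771 genes tested), 516 with DESeq2 in full, 9 with limma voom, 0 with only the 6 libraries compared, 104 with the 12 CD3+ libraries, 96 with the lane as a covariate and 416 with limma on log2 FPKM. The share of higher genes among the calls without a filter was 234 of 775, against 24 of 208. Leaving out 1 library gave 0 to 374 calls. They became 116 without the libraries rich in ribosomal loci, 591 without these and the library labelled CD3+CD8- 6, 246 on lane 2 alone and 161 on lane 3 alone. Alternatives chosen after seeing the data gave 394 calls (ribosomal loci and that library left out) and 188 (myeloid, B cell and dendritic cell genes removed). The difference between treatments, with 0 genes called, had 85 with library totals alone, 384 without a filter, 116 with DESeq2 in full and 2 with FPKM, and 0 to 127 when 1 library was left out, among them 127 without untreated CD3+CD8+ 5, 43 without treated CD3+CD8- 11 and 79 without treated CD3+CD8- 19. The causes were not tested. Lists emptied by the removal of their genes gave no median there.

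The same number links CD3+CD8+ and CD3+CD8- libraries for 5 numbers over untreated and treated mice, and 3 of 5 had deviations correlated over 0.1, so this check did not show the numbers to pair the libraries. Some genes went with the number. In untreated CD3-CD8- 1, 5 and 18, Xist was at 316, 0.651 and 0.563 CPM, high in number 1 like CD3+CD8+ 1. Hepatocyte genes there summed to 575, 601 and 5051 CPM, high in number 18 like both T cell libraries of that number. Whether a number is an animal was not tested. With a replicate block 435 genes were called, with only numbers 5 and 18 of the untreated T cells 124, and with both 322. The block gave 0 calls for the difference between treatments. With the block Ptprc stood at -0.20 and Hbb-bs at 0.25, and with only numbers 5 and 18 in a replicate block at -0.21 and 0.12.

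Library totals alone moved the median of all genes by -1.17, log2 FPKM by -1.35 and the removal of CD3+CD8+ 5 by -0.11, and values under them are given relative to it. Over the genes named in the text and all settings, 1327 values kept their side of the threshold, 550 lost a call, 123 gained one and 40 turned sign. Lane 3 alone turned Cd8a (-0.48), Cd8b1 (-0.75), Cd3e (-0.28), Cd3g (-0.72), Runx3 (-0.37), Cd160 (-0.19), Crtam (-0.65), Cd40lg (0.52) and Maf (0.16). Ms4a1 stood at -0.50, Pax5 at -0.48, Snora23 at -2.25 and Ptprc at -0.25 without the libraries rich in ribosomal loci. They stood at -0.55, -0.41, -2.33 and -0.42 without these and the library labelled CD3+CD8- 6, and at -0.55, -0.40, -2.24 and -0.42 on lane 2 alone. Ptprc stood at -0.16 and Runx3 at -0.031 with totals alone, and Ptprc at -0.54, Runx3 at -0.11, Cd3e at -0.21 and Cd3g at -0.43 with FPKM. Ptprc was also at -0.018 with ribosomal loci removed, -0.22 with that library left out too, and -0.21 with numbers 5 and 18 only. When 1 library was left out, Ptprc ran from -0.17 (without the library labelled 6) to 0.31, Cd3g from -0.11 (without CD3+CD8- 5) to 0.48, and Runx3 from -0.18 (without CD3+CD8- 18) to 0.30.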
